A study of Mus musculus with 16 samples.

Results

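The CDK inhibitors are the proteins that bind cyclin-dependent kinases (CDKs) and hold back the cell cycle, and 7 mouse genes encode them: *Cdkn1a*, *Cdkn1b*, *Cdkn1c*, *Cdkn2a*, *Cdkn2b*, *Cdkn2c* and *Cdkn2d*. The members were taken by gene symbol alone, as these 7 of the 24984 genes in the count table of DP thymocytes and of the 24974 genes in that of CD8 thymocytes. The study deleted *Tox4*, which encodes an HMG-box regulator of PP1 phosphatases, in developing T cells and sequenced polyA RNA in bulk. Sorted DP thymocytes (CD4+CD8+) gave 3 control and 3 cKO samples, and CD8 thymocytes (sorted as TCRβ+CD8+) gave 5 control and 5 cKO samples. Control mice were *Tox4* F/F without Cre, and cKO mice were *Tox4* F/F;Lck+ in the DP labels and *Tox4* F/F;Lck-cre in the CD8 labels. Both genotypes therefore carry the floxed allele (exons 4 to 6), and the mice, littermates of the same sex within a comparison, were 6 to 8 weeks of age. Cre is driven by the proximal *Lck* promoter, which acts in T-lineage cells from the DN3 stage, so the gene is lost several stages before the cells measured here and nothing is known from these samples about the time since deletion. A Cre-positive control without the floxed allele is not among the samples.

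As background, the family has 2 branches. The Cip/Kip proteins (p21, p27 and p57) act on several cyclin-CDK complexes, above all those of CDK2, whereas the Ink4 proteins (p16, p15, p18 and p19) bind CDK4 and CDK6 and keep them from cyclin D. With the CDKs held back, the pocket proteins of the Rb family stay bound to E2F factors and cells do not enter S phase. Thymocytes pass from rapid division after β-selection to rest as small DP cells, and p27 and p18 are known to restrain division in the thymus, while p21 is best known as a target of p53.

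Markers of the labelled cell types were present in each library. *Rag1*, which recombines antigen receptor genes and is active in DP cells, was 3083 to 4269 TPM (a level corrected for library size and gene length) in DP control and 2556 to 3501 in DP cKO samples, against 5.57 to 60.1 in CD8 control and 12.1 to 48.1 in CD8 cKO samples. *Cd4* was 1454 to 1834 and 1570 to 1797 TPM in DP and 3.64 to 70.9 and 5.79 to 81.6 TPM in CD8 control and cKO samples. *Nkg7*, a gene of cytotoxic granules, was 6.28 to 13.8 and 4.71 to 6.89 TPM in DP and 381 to 596 and 364 to 684 TPM in CD8 control and cKO samples. Each of these genes thus separates the cell types in all samples and overlaps between genotypes. *Tox4* mRNA itself was 154, 172 and 180 CPM (counts scaled to library size with edgeR's TMM method, not to gene length) in DP control samples and 133, 141 and 131 in DP cKO samples. Its level in CD8 cells was 197, 188, 200, 201 and 178 CPM in control samples and 169, 185, 176, 234 and 164 in cKO samples. All DP cKO samples lay below all DP controls, whereas in CD8 cells the groups overlapped and cKO replicate 4 was above every control. The deletion removes only part of the transcript, so gene-level counts can miss it, and the log2 fold changes were -0.32 in DP (edgeR adjusted p = 0.381) and -0.06 in CD8 cells (adjusted p = 0.979).

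*Cdkn1a* encodes p21, and RefSeq (build GRCm38.p6) gives it 2 starts. The 250 bases before each are shown because *Cdkn1a* is the member whose groups do not overlap in either cell type. In the sequence before the upstream start, capitals mark 2 adjoining p53 half-sites that together have 1 mismatch from the p53 consensus and end 32 bases before the start. In that before the downstream start they mark the GC box GGGCGG.
Cdkn1a upstream start, chr17:29090729-29090978, + strand: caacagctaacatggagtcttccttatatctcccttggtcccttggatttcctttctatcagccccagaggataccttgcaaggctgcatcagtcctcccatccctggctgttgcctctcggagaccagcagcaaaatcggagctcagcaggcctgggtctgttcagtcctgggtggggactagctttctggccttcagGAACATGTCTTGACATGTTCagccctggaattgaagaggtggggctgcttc
Cdkn1a downstream start, chr17:29093519-29093768, + strand: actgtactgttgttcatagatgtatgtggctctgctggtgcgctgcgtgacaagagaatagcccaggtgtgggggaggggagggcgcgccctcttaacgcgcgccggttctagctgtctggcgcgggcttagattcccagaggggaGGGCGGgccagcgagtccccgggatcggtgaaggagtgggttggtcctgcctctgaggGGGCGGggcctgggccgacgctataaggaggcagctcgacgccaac
Such a pair of p53 half-sites (both strands, no base between, at most 1 mismatch) occurs in 25 of 32851 mouse promoters of this length (0.0761%), a single half-site in 7.13% and a GC box in 32.7%. RefSeq promoters were at hand for 6 of the 7 members (9 promoters, none for *Cdkn1c*). A pair was found in 1 of the 9, the upstream *Cdkn1a* promoter, and a single half-site also in that of *Cdkn2d*. GC boxes were found before *Cdkn1b* (1), *Cdkn2a* (2), *Cdkn2c* (3) and *Cdkn2d* (3). A match describes the letters and does not show binding, and counts per gene cannot tell which start was used.

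*Cdkn1a* mRNA in DP cells was 1.11, 2.24 and 1.42 CPM in control samples and 5.93, 2.94 and 3.93 CPM in cKO samples. In CD8 cells it was 1.74, 0.642, 0.701, 2.02 and 1.46 CPM in controls and 4.68, 3.14, 4.16, 3.82 and 3.56 CPM in cKO samples. In both cell types the lowest cKO sample stood above the highest control, by a narrow margin in DP cells, where cKO replicate 2 and control replicate 2 came closest. These are low counts: 19, 41 and 24 fragments in DP control libraries, 43 to 126 in DP cKO, 7 to 22 in CD8 control and 31 to 55 in CD8 cKO libraries.

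The log2 fold change of *Cdkn1a* was 1.42 in DP cells (standard error 0.38, 95% interval 0.56 to 2.29, or 2.68-fold) and 1.55 in CD8 cells (standard error 0.33, 0.84 to 2.26, or 2.93-fold). With edgeR, whose p-values measure the change against the spread between samples, the Benjamini-Hochberg adjusted p was 0.245 in DP cells, with *Cdkn1a* at rank 231 by p of 11748 genes. It was 0.126 in CD8 cells, at rank 30 of 11227 genes. Neither passes 0.05. With DESeq2, the tool the study used, the adjusted p was 0.0499 in DP cells, at the edge of the threshold (0.0456 to 0.0681 over 4 DESeq2 settings, 2 of them past it), and 0.00252 in CD8 cells (0.00113 to 0.0120 over 6 settings, all past it). With each sample left out in turn, DESeq2 placed it past the threshold in 2 of 6 fits in DP cells, those without control replicate 2 or cKO replicate 2 (adjusted p = 0.0357 and 0.0479, 0.242 to 0.365 in the others), and in 10 of 10 in CD8 cells (0.00113 to 0.0292). None of the edgeR alternatives passed in DP cells (13 alternatives, 0.132 to 0.557) or in CD8 cells (19 alternatives, 0.0527 to 0.393), so the call in each cell type depends on the tool. By size alone 0.596% of the genes tested in DP cells and 0.107% of those in CD8 cells had a larger log2 fold change. An exact permutation test gave p = 0.1 in DP and p = 0.00794 in CD8 cells, each the smallest p that so many samples allow.

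**Figure D1:**
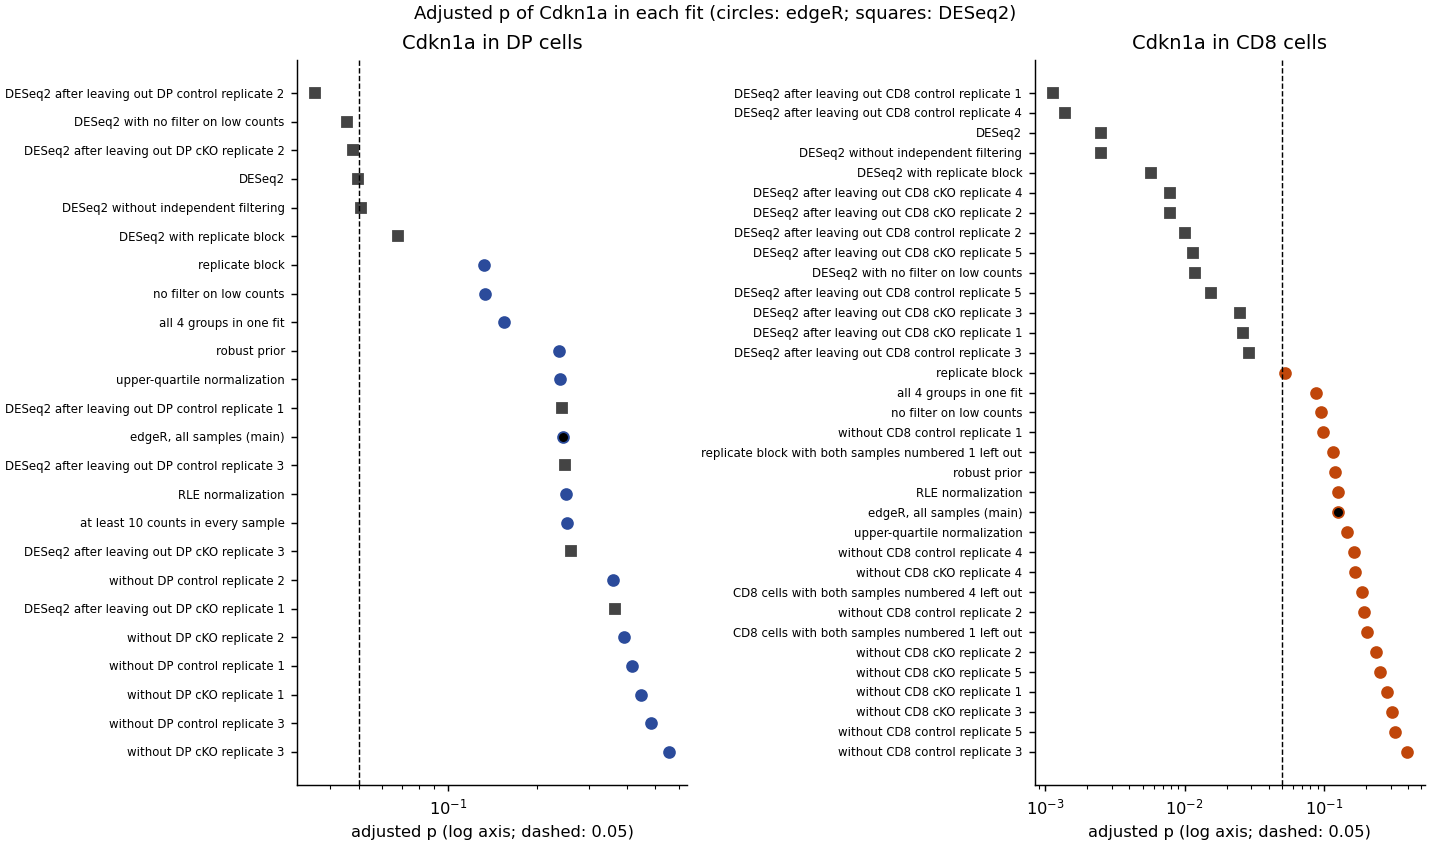
Adjusted p of *Cdkn1a* in each fit, by cell type, on a log axis. Circles are edgeR fits, squares DESeq2 fits, and the black circle is the edgeR fit of all samples. The dashed line is at 0.05.

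Each point is 1 way of fitting the same counts. In CD8 cells all 14 squares stand to the left of the line and the circles to its right. In DP cells 4 of the 10 squares lie to the left of the line, and those without control replicate 1, control replicate 3, cKO replicate 1 or cKO replicate 3 lie among the circles.

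Among the 7 members, edgeR placed 0 past an adjusted p of 0.05 in either direction, in DP and in CD8 cells. Of the family 5 of 7 could be tested in DP and 4 of 7 in CD8 cells. The others were under the filter on low counts. Of all genes tested, edgeR called 0.0851% higher and 0.0596% lower in DP cKO cells, and 0.0891% higher and 0.0178% lower in CD8 cKO cells. DESeq2 placed 1 member past the threshold, *Cdkn1a*, as higher in both cell types and none as lower, against 0.938% of genes higher and 0.686% lower in DP cells and 0.445% higher and 0.196% lower in CD8 cells. An unadjusted edgeR p under 0.05 was reached by 1079 genes in DP and 629 in CD8 cells, and by 1 member, *Cdkn1a*, in each. *Cdkn1a* was also the 1 member whose cKO samples all lay above all controls, as did those of 7.87% of the genes tested in DP and 0.855% of those in CD8 cells. The difference between its changes in CD8 and DP cells was a log2 value of 0.13 (standard error 0.52, edgeR adjusted p = 0.986). No member passed that test of the difference (edgeR, 0 members and 0.107% of 12131 genes, 639 genes at an unadjusted p under 0.05), which was not run with DESeq2. In bulk RNA, fewer cells of a type and less RNA per cell cannot be told apart.

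**Figure D2:**
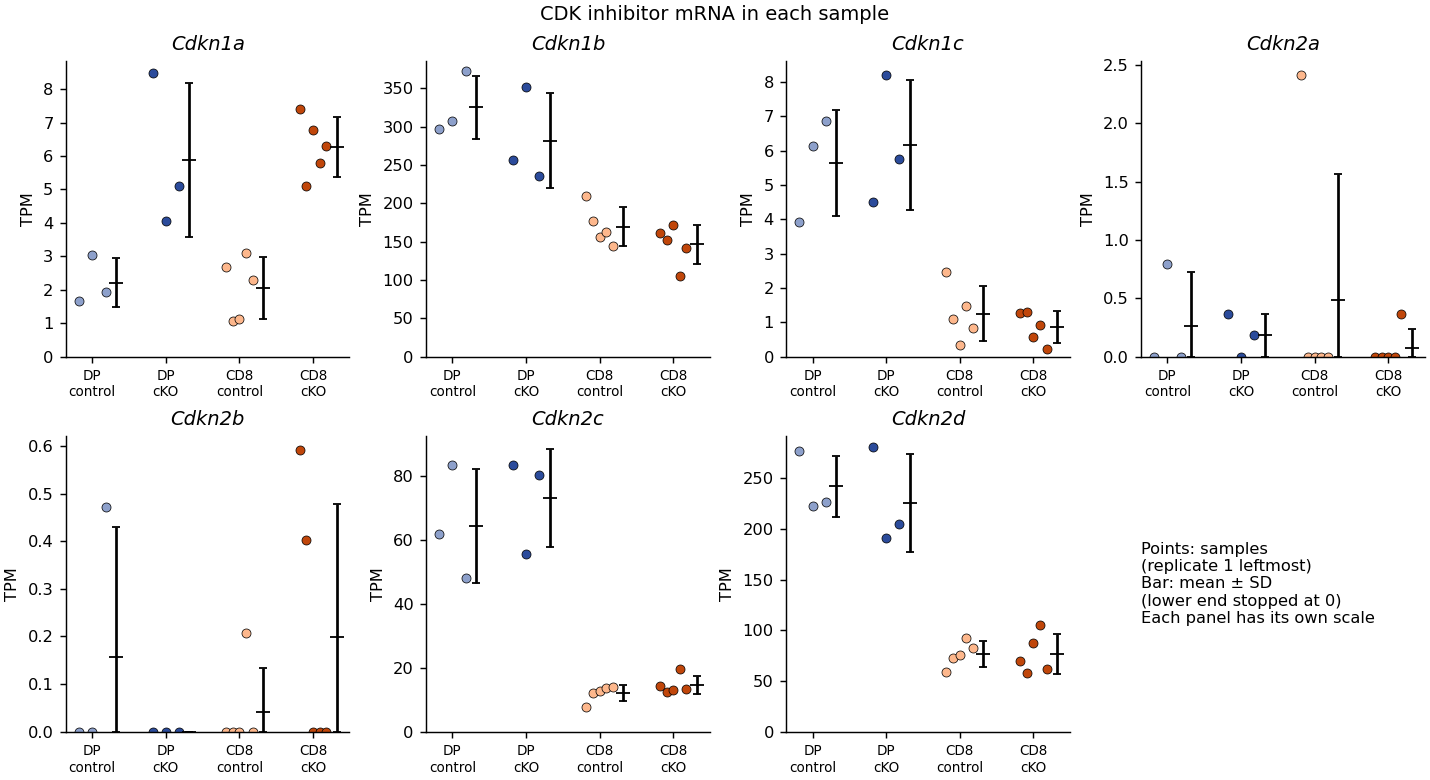
TPM of each CDK inhibitor gene in every sample. Points are samples, bars the mean and SD (lower end stopped at 0). DP: 3 control and 3 cKO samples. CD8: 5 and 5. Each panel has its own scale.

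The panels show that *Cdkn1a* separates by genotype in both cell types, while *Cdkn1b*, *Cdkn1c*, *Cdkn2c* and *Cdkn2d* separate by cell type and overlap between genotypes. *Cdkn2a* and *Cdkn2b* are at 0 in most samples.

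The other Cip/Kip members did not pass the threshold where they were tested. *Cdkn1b*, which encodes p27, was 236, 267 and 321 CPM in DP control samples and 213, 302 and 215 in DP cKO samples. In CD8 cells it was 160, 127, 114, 125 and 108 CPM in controls and 121, 112, 124, 82.5 and 94.96 CPM in cKO samples. The groups overlapped in both, although 2 of the 3 DP cKO samples and 2 of the 5 CD8 cKO samples (replicates 4 and 5) were below every control. Its log2 fold change was -0.18 in DP cells (95% interval -0.56 to 0.21, edgeR adjusted p = 0.833) and -0.24 in CD8 cells (-0.52 to 0.03, adjusted p = 0.949). With a sample left out these values ran from -0.36 (without cKO replicate 2) to -0.06 (without control replicate 3) in DP and from -0.30 (without cKO replicate 3) to -0.15 (without control replicate 1) in CD8 cells, none past the threshold. *Cdkn1c*, an imprinted gene that encodes p57, was 2.52, 4.31 and 4.78 CPM in DP controls and 3.01, 5.67 and 4.24 CPM in DP cKO samples, with overlap. The log2 fold change was 0.15 (95% interval -0.61 to 0.91, edgeR adjusted p = 0.938), and its sign turned when a single sample was left out. In CD8 cells *Cdkn1c* was under the count filter, at 1.52, 0.642, 0.200, 0.918 and 0.510 CPM in controls and 0.115 to 0.766 CPM in cKO samples, again with overlap.

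Of the Ink4 branch, *Cdkn2c* (p18) was 46.0, 67.8 and 38.8 CPM in DP controls and 64.5, 44.4 and 68.4 CPM in DP cKO samples. Its values in CD8 cells were 5.55, 8.07, 8.72, 9.82 and 9.69 CPM in controls and 10.04, 8.41, 8.88, 14.2 and 8.39 CPM in cKO samples. The groups overlapped in both, and CD8 cKO replicate 4 stood apart at the top. The log2 fold changes were 0.22 in DP (95% interval -0.30 to 0.74, edgeR adjusted p = 0.844) and 0.25 in CD8 cells (-0.18 to 0.68, adjusted p = 0.979). With a sample left out they ran from 0.05 (without control replicate 3) to 0.48 (without control replicate 2) in DP and from 0.09 (without cKO replicate 4) to 0.31 (without control replicate 4) in CD8 cells. *Cdkn2d*, which encodes the p19 protein of the Ink4 kind, was 116, 102 and 103 CPM in DP controls and 122, 86.1 and 98.5 CPM in DP cKO samples. In CD8 cells it was 23.8, 27.6, 29.3, 37.5 and 32.4 CPM in controls and 27.5, 22.4, 33.5, 43.2 and 21.8 CPM in cKO samples. High and low samples occurred in both genotypes, and the log2 fold changes were -0.06 (95% interval -0.40 to 0.27, edgeR adjusted p = 0.937) and -0.03 (-0.42 to 0.37, adjusted p = 0.998). Both signs of *Cdkn2d* turned when a single sample was left out. As folds its intervals run from 0.760 to 1.203 in DP and from 0.747 to 1.29 in CD8 cells.

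The last members were hardly detected. *Cdkn2a*, which encodes p16 and, from another reading frame, the p53 activator Arf, had 0, 6 and 0 fragments in DP controls and 3, 0 and 2 in DP cKO libraries. In CD8 cells it had 8 fragments in control replicate 1 (0.870 CPM), 1 in cKO replicate 5, and 0 in the other 8 libraries. *Cdkn2b*, which encodes p15, had 4 fragments in DP control replicate 3 and 0 in the other 5 DP libraries. In CD8 cells its counts were 1 in control replicate 4, 3 and 2 in cKO replicates 1 and 2, and 0 elsewhere. These genes were therefore not tested, and a library at 0 could still hold as much as 3 fragments, or 0.118 to 0.205 CPM in DP and 0.219 to 0.347 CPM in CD8 libraries. CD8 control replicate 1, the library with 8 *Cdkn2a* fragments, also stood out in its number of detected genes, 17741, the 9 other CD8 libraries having 13708 to 15054. Without it, *Cdkn1a* in CD8 cells kept a log2 fold change of 1.66 (edgeR adjusted p = 0.0986, DESeq2 adjusted p = 0.00113, ranges over alternatives as above).

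**Figure D3:**
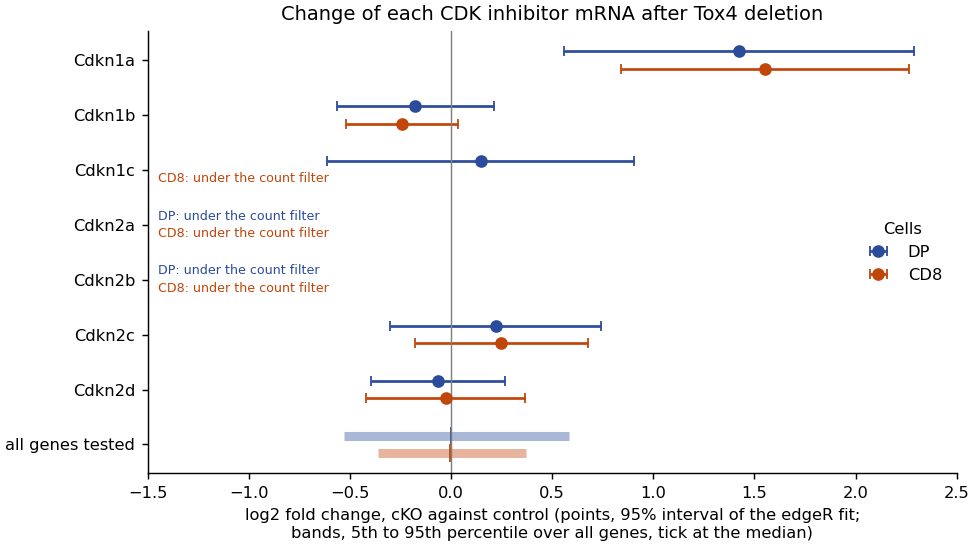
Log2 fold change of each member in cKO against control cells, with 95% intervals of the edgeR fit. The bands at the bottom span the 5th to 95th percentile of all genes tested, with a tick at the median.

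Of the intervals drawn, those of *Cdkn1a* lie above 0 and all others include it. Over all genes the median log2 fold change was -0.00 in DP and -0.01 in CD8 cells, and the 5th to 95th percentiles ran from -0.53 to 0.58 and from -0.36 to 0.37. The intervals rest on 3 or 5 samples a group. The libraries carry no molecular identifiers, so amplified copies of a fragment were counted like separate molecules.

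Because levels can be compared between genes only per length, the order of the members is given in TPM. In DP control cells the mean levels were *Cdkn1b* 326, *Cdkn2d* 242, *Cdkn2c* 64.3, *Cdkn1c* 5.65, *Cdkn1a* 2.21, *Cdkn2a* 0.266 and *Cdkn2b* 0.158 TPM, with every neighbour apart in all samples but for the last 2. In DP cKO cells the order was the same, but *Cdkn1a*, at 5.87 ± 2.31 TPM (SD, n = 3), could no longer be separated from *Cdkn1c* at 6.16 ± 1.88, and *Cdkn1b* overlapped with *Cdkn2d*. In CD8 control cells the means were *Cdkn1b* 170, *Cdkn2d* 76.6, *Cdkn2c* 12.0, *Cdkn1a* 2.06, *Cdkn1c* 1.25, *Cdkn2a* 0.482 and *Cdkn2b* 0.0413 TPM, and the 4 lowest overlapped each with the next. In CD8 cKO cells *Cdkn1a*, at 6.28 ± 0.895 TPM (SD, n = 5), stood above *Cdkn1c* at 0.856 ± 0.465 in all samples, still below *Cdkn2c* at 14.5 ± 2.87. Even where it is highest, *Cdkn1a* is thus a small fraction of the family's mRNA: 0.347% of the summed TPM of the members in DP control, 0.986% in DP cKO, 0.779% in CD8 control and 2.56% in CD8 cKO cells. *Cdkn1b* and *Cdkn2d* make up most of the rest, and mRNA levels need not follow protein levels, which for p27 depend strongly on turnover.

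Between the control groups, 4 members were lower in CD8 than in DP cells, with log2 differences in CPM of -1.04 for *Cdkn1b*, -2.29 for *Cdkn1c*, -2.52 for *Cdkn2c* and -1.75 for *Cdkn2d* (edgeR adjusted p = 1.23e-05, 0.000338, 1.79e-08 and 3.13e-07), where 31.4% of 12131 genes were lower. *Cdkn1a* did not differ by this test (-0.20, 95% interval -1.01 to 0.61, edgeR adjusted p = 0.677). The DP and CD8 libraries were deposited as separate tables, so cell type and experiment cannot be told apart in these differences.

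A difference between members needs a test of its own, so *Cdkn1a* was set against other members within the same sample, as the log2 ratio of CPM + 0.5, which does not depend much on how libraries are scaled. In CD8 cells the ratio to *Cdkn1b* was between -6.80 and -5.64 in the 5 controls and between -4.94 and -4.26 in the 5 cKO samples. No control reached a cKO sample. The difference between the group means was 1.58 for *Cdkn1b* and 1.39 for *Cdkn2d* (exact permutation p = 0.00794 for each, the smallest possible), and 1.09 for *Cdkn2c* (exact permutation p = 0.0159, with 4 of 5 cKO samples above every control). In DP cells the differences were 1.36 for *Cdkn1b*, 0.95 for *Cdkn2c* and 1.25 for *Cdkn2d* (exact permutation p = 0.1 for each, the smallest possible), and 1.04 for *Cdkn1c* (exact permutation p = 0.2), whose groups overlapped. These ratios share the same *Cdkn1a* values and are not independent. Ratios to *Cdkn2a* and *Cdkn2b*, and to *Cdkn1c* in CD8 cells, were computed as well. *Cdkn2a* and *Cdkn2b*, at 0 in 3 and 5 of the 6 DP and in 8 and 7 of the 10 CD8 libraries, and *Cdkn1c*, at 1 to 14 fragments in CD8 libraries, leave little in the ratio but *Cdkn1a* and the pseudocount, so no comparison is drawn from it.

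**Figure D4:**
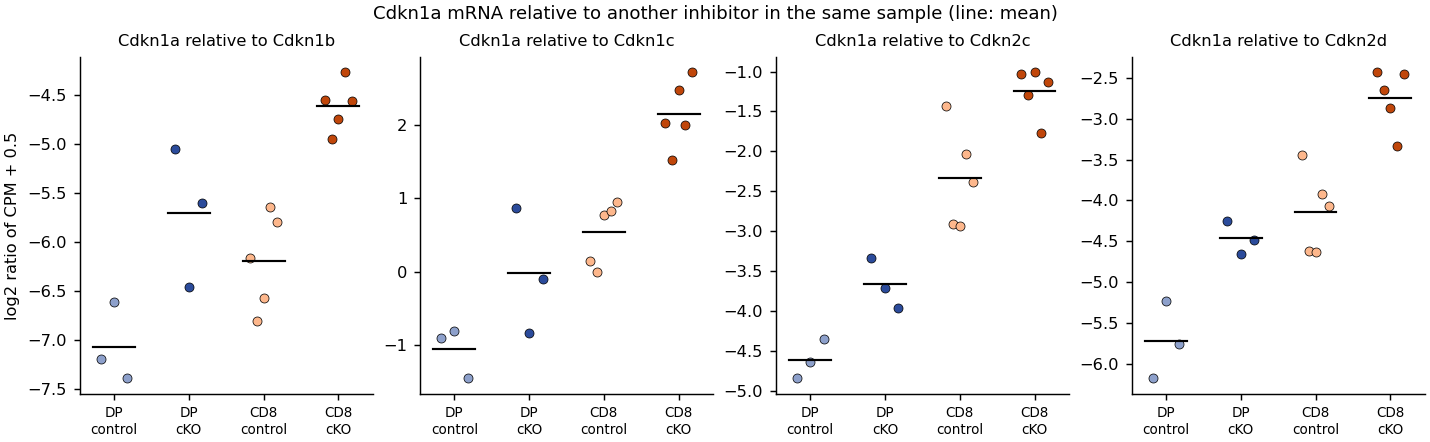
Log2 ratio of *Cdkn1a* to each of 4 other members within the same sample, by group. Lines are means. DP: 3 and 3 samples. CD8: 5 and 5.

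In all panels the cKO points lie above the control points of the same cells, apart from an overlap with *Cdkn1c* in DP and with *Cdkn2c* in CD8 cells. In CD8 cells the overlapping samples are control replicate 1, which has the lowest *Cdkn2c* of its group, and cKO replicate 4, which has the highest. The CD8 points for *Cdkn1c* reflect mostly *Cdkn1a*.

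The genes around the inhibitors were taken from 5 lists. Of the 12 CDKs and cyclins that the inhibitors act on, edgeR placed 0 past the threshold in DP cells (2 at an unadjusted p under 0.05, DESeq2 0 higher and 1 lower) and 0 in CD8 cells (1 at an unadjusted p under 0.05, DESeq2 0). *Ccnd2*, which encodes cyclin D2, had a mean of 44.1 CPM (29.9 to 51.5) in DP controls and 19.9 CPM (17.5 to 23.0) in DP cKO cells, without overlap. The log2 change, -1.14, had an adjusted p of 0.122 with edgeR and of 0.000258 with DESeq2. With a block for replicate number, edgeR passed *Ccnd2* as lower in DP cells (adjusted p = 0.0181). In CD8 cells, where *Ccnd2* averaged 1161 CPM in controls, the log2 change was 0.02 (edgeR adjusted p = 0.998). *Ccnd3*, which encodes cyclin D3, differed by 0.09 and 0.23, *Cdk4* by 0.40 and 0.07 and *Cdk6* by 0.15 and 0.13 in DP and CD8 cells. Each of these overlapped between genotypes. The median over the list was 0.17 in DP and 0.18 in CD8 cells.

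Of the 11 pocket proteins and E2F factors, edgeR again placed 0 past the threshold in either cell type (3 at an unadjusted p under 0.05 in DP and 1 in CD8 cells). DESeq2 placed 1 past it in DP cells, *E2f2*, as higher, and 0 in CD8 cells. *E2f2* was 476 to 554 CPM in DP controls and 648 to 782 CPM in DP cKO cells, without overlap, a log2 fold change of 0.50 (edgeR adjusted p = 0.180, DESeq2 adjusted p = 0.0188). With DESeq2 it passed without control replicate 2 or cKO replicate 2 and missed without any of the other 4 (adjusted p = 0.0815 to 0.164). *E2f7*, a repressor of E2F targets, was 0.49 higher without overlap in DP cells (edgeR adjusted p = 0.386) and *Rbl2*, which encodes the pocket protein p130, had log2 fold changes of -0.16 and 0.14. The medians over the list were 0.07 in DP and 0.09 in CD8 cells.

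The list of 15 regulators of inhibitor transcription or turnover held the 1 gene of the 5 lists that passed with edgeR without the block. With the block *Bbc3*, *Btg2* and *Ccnd2* of the other lists passed as well in DP cells (edgeR adjusted p = 0.0339, 0.0293 and 0.0181). *Myc*, whose product represses *Cdkn1a* and *Cdkn2b* with Zbtb17, was 37.1 to 42.6 CPM in DP controls and 68.6 to 82.9 CPM in DP cKO cells, so the groups were wide apart. It rose by 0.97 on the log2 scale (edgeR adjusted p = 0.0315, DESeq2 adjusted p = 7.21e-08, higher in 3 of 3 cKO samples). The edgeR call held without cKO replicate 1 (adjusted p = 0.0443) and was lost without any 1 of the other 5 samples (0.0780 to 0.208), while DESeq2 passed it in all 6 fits and the log2 fold change stayed between 0.91 and 1.05. Of the 15 regulators 5 had an unadjusted edgeR p under 0.05 in DP cells, where 1079 of 11748 genes did. In CD8 cells *Myc* overlapped between genotypes, at -0.10 (edgeR adjusted p = 0.978). None of the 14 regulators tested in CD8 cells passed with edgeR or DESeq2, and 0 had an unadjusted edgeR p under 0.05. The medians over the list were 0.18 and 0.04.

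Of the 18 p53 targets other than *Cdkn1a*, edgeR tested 17 in DP and 16 in CD8 cells and placed 0 past the threshold in each (0 and 3 at an unadjusted p under 0.05), and DESeq2 placed 0 and 1 past it. The 1 was *Phlda3*, which encodes a repressor of Akt, at 0.367 to 0.979 CPM in CD8 controls and 1.39 to 2.47 CPM in CD8 cKO cells. Every cKO sample was above every control, a log2 fold change of 1.59 (edgeR adjusted p = 0.161, DESeq2 adjusted p = 0.0374). With DESeq2 it passed without control replicate 1, control replicate 2 or cKO replicate 4 and missed without any of the other 7 (adjusted p = 0.0800 to 0.220). With DESeq2 and the block *Phlda3* missed in CD8 cells (adjusted p = 0.144). In DP cells *Phlda3* overlapped, at 0.76 (edgeR adjusted p = 0.589). *Ccng1*, the 1 gene of the 14 with a RefSeq promoter that holds a p53 pair like that of *Cdkn1a*, differed by -0.26 in DP and 0.27 in CD8 cells on the log2 scale (edgeR adjusted p = 0.696 and 0.490). With DESeq2 *Ccng1* missed in CD8 cells on all samples (adjusted p = 0.269) and passed in 1 of 10 fits with a sample left out (0.0142). The proapoptotic genes *Bax* and *Bbc3* differed by 0.32 and 0.67 in DP and by 0.03 and 0.33 in CD8 cells, none past the threshold with edgeR or DESeq2 on all samples and no block (*Bbc3* in DP cells passed with DESeq2 without control replicate 3, adjusted p = 0.00848). With the block *Bbc3* passed as higher in DP cells (edgeR adjusted p = 0.0339, DESeq2 adjusted p = 0.00144). *Btg2* of the same list passed as lower (0.0293 and 0.000751). The medians were 0.02 in DP and 0.18 in CD8 cells, and 9 of 17 and 12 of 16 of the genes were above 0, as were 49.8% and 48.4% of all genes.

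The 22 proliferation genes are the list with which the study's methods scored single thymocytes. The list was chosen here with earlier results of these data known, so its direction is no independent evidence. With edgeR 0 passed in either cell type (3 at an unadjusted p under 0.05 in DP and 1 in CD8 cells), and DESeq2 placed 1 higher in DP cells, *Mybl2*, and 0 in CD8 cells. *Mybl2*, a target of E2F, was 39.9 to 58.3 CPM in DP controls and 66.2 to 86.6 CPM in DP cKO cells, a log2 fold change of 0.70 (edgeR adjusted p = 0.220, DESeq2 adjusted p = 0.0232). It too passed with DESeq2 without control replicate 2 or cKO replicate 2 and missed without any of the other 4 (adjusted p = 0.0893 to 0.267). *Foxm1*, needed for entry into mitosis, and *Top2a* differed by 0.57 and 0.35 in DP cells (edgeR adjusted p = 0.328 and 0.677), *Top2a* with overlap between genotypes. In CD8 cells they differed by 0.09 and 0.36, both with overlap (edgeR adjusted p = 0.979 and 0.954). With DESeq2 and the block, *Foxm1* (adjusted p = 0.0154) and *Mki67* (0.00190) passed as higher in DP cells. Of the 22 genes 20 lay above 0 in DP and 16 in CD8 cells, with medians of 0.31 and 0.10. No set test was made.

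**Figure D5:**
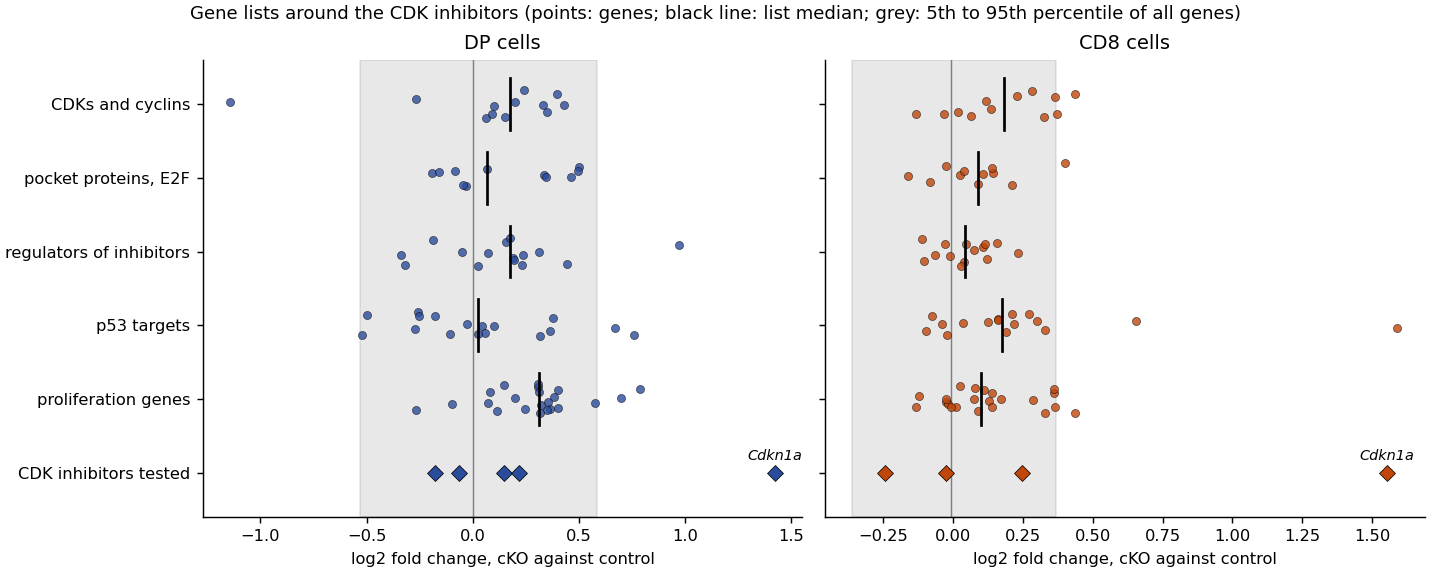
Log2 fold change of the genes of each list, by cell type. Black lines are list medians, the grey band spans the 5th to 95th percentile of all genes tested, and diamonds are the CDK inhibitors.

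Most genes of the lists lie within the band of all genes. *Cdkn1a* and *Phlda3* lie outside it on the right in both cell types. In DP cells *Myc*, *Mki67*, *Mybl2* and *Bbc3* do so too, with *Ccnd2* on the left, and in CD8 cells *Plk2*, *Ccnb1*, *E2f2* and *Ccna2* on the right. *Mki67*, *Plk2*, *Ccnb1* and *Ccna2* are named for their place in the plot, after their values were seen.

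Some marker lists of other cells separated by genotype, and their part in these results was not tested. The DP sort for CD4+CD8+ cells should leave out cells without both markers. In DP cells each list given as a sum below, from CD8 single-positive to natural killer markers, had all cKO samples below all controls (exact permutation p = 0.1 for each, the smallest possible). Of single genes tested in DP cells, 7.87% had all cKO samples above all controls, and the share with all below was not counted. The 5 CD8 single-positive markers summed to 7544, 6517 and 6714 TPM in controls and 6343, 5621 and 5912 in cKO samples. *Cd8b1* was the most abundant, and *Cd8a*, at 1782 to 2341 TPM in controls and 1257 to 1699 in cKO samples, differed more (log2 fold change -0.45 against -0.10, edgeR adjusted p = 0.328 and 0.853). DP cells express genes of that list too. Single markers of mature thymocytes were lower as well: *Ccr7* was 24.5 to 48.6 and 13.6 to 17.1 TPM (log2 fold change -1.07, adjusted p = 0.133 with edgeR and 0.00258 with DESeq2) and *Bcl2* 18.2 to 24.7 and 11.7 to 14.5 TPM (-0.67, adjusted p = 0.129 and 0.00379). The DESeq2 call of *Ccr7* was lost without cKO replicate 3 (adjusted p = 0.0675), and that of *Bcl2* without control replicate 1, control replicate 2 or cKO replicate 3 (0.0516, 0.0770 and 0.0525). *S1pr1*, without overlap, differed by -1.36 (edgeR adjusted p = 0.330, DESeq2 adjusted p = 0.120), while *Il7r* (10.5 to 21.5 and 4.88 to 10.8 TPM, edgeR adjusted p = 0.328, DESeq2 adjusted p = 0.0689, and 0.0364 and 0.0101 without control replicate 3 or cKO replicate 1) and *Klf2* (-0.28, edgeR adjusted p = 0.867) overlapped between genotypes. The 3 CD4 single-positive markers, of which *Zbtb7b* or *Cd40lg* was most abundant, summed to 24.9, 20.5 and 14.5 TPM in controls and 11.01, 8.09 and 8.42 in cKO samples. *Zbtb7b* passed as lower with DESeq2 (log2 fold change -1.08, adjusted p = 0.122 with edgeR and 0.00132 with DESeq2), also with any 1 sample left out. The 7 macrophage or dendritic markers, led by *Cd74*, summed to 134, 298 and 124 TPM and 61.1, 77.9 and 92.5. Of these *Cd74*, *H2-Aa* and *Lyz2* passed as lower with DESeq2 (adjusted p = 0.0415, 0.0110 and 0.00745) and not with edgeR (0.346, 0.232 and 0.243), and without control replicate 2, cKO replicate 1 or cKO replicate 2 none of them did (*Lyz2* nor without cKO replicate 3, adjusted p = 0.0766). Control replicate 2 was the highest by far (DESeq2 adjusted p without it = 0.508, 0.185 and 0.159), and without it the log2 fold change of *Cdkn1a* in DP cells was 1.75 (edgeR adjusted p = 0.359, within 0.132 to 0.557 over the edgeR alternatives). The 5 thymic epithelial markers summed to 7.81, 8.30 and 12.0 TPM and 6.71, 4.79 and 6.03, nearly all *Epcam*, with *Foxn1* at 0 in all 6 libraries. The 3 natural killer markers summed to 2.14, 1.18 and 0.383 TPM and 0.282, 0.219 and 0.230, mostly *Klrb1c*, with *Ncr1* at 0 in all but 1 control. In DP cells the B cell (41.8 to 61.5 TPM in controls, 40.0 to 44.7 in cKO), red cell (0.194 to 0.641 over all 6) and gamma-delta lists (1.99 to 3.50) overlapped between genotypes.

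The CD8 sort for TCRβ+CD8+ cells should leave out cells without TCRβ, gamma-delta T cells among them. In CD8 cells 1 list stood apart. Of its 5 gamma-delta T cell markers 3 are in the table (*Sox13*, *Blk* and *Cd163l1*), and they summed to 8.86, 7.89, 8.73, 4.56 and 6.43 TPM in controls and 29.5, 15.2, 15.3, 14.6 and 22.1 TPM in cKO samples. Every cKO sample was above every control (exact permutation p = 0.00794, the smallest possible). *Sox13* or *Cd163l1* was most abundant, none of the 3 was at 0, and *Cd163l1* rose with edgeR, by 1.81 on the log2 scale (adjusted p = 0.00984). *Sox13* differed by 1.29 on that scale (adjusted p = 0.203 with edgeR and 0.0129 with DESeq2). Its DESeq2 call was lost without control replicate 3, 4 or 5 or cKO replicate 1 (adjusted p = 0.0657 to 0.115). With edgeR *Sox13* passed without control replicate 1 (adjusted p = 0.0488). *Blk* differed by 0.67 and overlapped between genotypes (edgeR adjusted p = 0.979). The defining genes *Trdc* and *Tcrg-C1* are not in the table. The following lists overlapped between genotypes in CD8 cells: CD8 single-positive 6728 to 9283, CD4 single-positive 6.15 to 42.9, B cell 20.4 to 65.5, macrophage or dendritic 51.7 to 141, thymic epithelial 1.21 to 6.18, natural killer 11.3 to 23.6 and red cell 0 to 0.153 TPM over the 10 samples. The DP thymocyte list overlapped too, at 3109 to 3704 TPM, with all cKO samples but replicate 4 below every control (exact permutation p = 0.0794). The mature single-positive list also overlapped and differed by replicate number in both genotypes. Its sums were 2561 to 3003 TPM in replicates 1 and 2 and 3984 to 5136 TPM in replicates 3 to 5. The reason for this split was not tested. *Foxp3* of the CD4 single-positive list was 6.01 to 16.2 TPM in CD8 controls and 2.36 to 6.85 in CD8 cKO samples, a log2 fold change of -1.16 (adjusted p = 0.277 with edgeR and 0.0289 with DESeq2). With DESeq2 it passed without control replicate 2, control replicate 4, cKO replicate 1 or cKO replicate 5 and missed without any of the other 6 (adjusted p = 0.0530 to 0.160).

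Across all 16 samples, the genes whose log2 CPM followed *Cdkn1a* most closely of 12130 others were *Tspoap1* (r = 0.85), *Slx1b* (0.85), *Tapbpl* (0.81), *Slc3a1* (0.81) and *Ppp1r10* (0.80). Each was higher in all cKO than in all control samples of both cell types, except *Tapbpl*, which overlapped in CD8 cells. *Tspoap1* was 24.5 CPM in DP controls and 138 CPM in DP cKO cells, and 24.0 and 192 CPM in CD8 cells, which on the log2 scale is 2.49 and 2.998 higher (edgeR adjusted p = 0.00204 and 3.92e-06). The edgeR call in DP cells was lost without control replicate 2 (adjusted p = 0.0642) and held without each other sample, and DESeq2 passed it in all 6 fits. The other members were followed most closely by genes that differ, as they do, mainly between DP and CD8 cells: *Cdkn1b* by *Tra2a*, *Cd1d1* and *Srsf5* (all r = 0.97), *Cdkn1c* by *Nsa2*, *Snhg8* and *Slc7a6os* (all r = 0.97), *Cdkn2c* by *Eif4h*, *Stmn1* and *Cdc20* (all r = 0.99), and *Cdkn2d* by *Ech1* (0.99), *Jpt1* (0.98) and *Rps29* (0.98). The samples share cell type and genotype, so these values describe likeness and carry no test.

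The members lie on 5 chromosomes, with *Cdkn2a*, *Cdkn2b* and *Cdkn2c* on chromosome 4, and *Cdkn2b* is the nearest gene upstream of *Cdkn2a* on the same strand, 11669 bases away. The nearest upstream gene on the strand of *Cdkn1a* is *Srsf3*, 47606 bases away, which differed by -0.10 in DP and -0.15 in CD8 cells (log2, edgeR adjusted p = 0.924 and 0.954). The 2 genes that overlap *Cdkn1a*, *Gm27740* and *Gm27775*, had no counts. The nearest upstream genes of *Cdkn1b*, *Cdkn1c*, *Cdkn2b*, *Cdkn2c* and *Cdkn2d* are *2810454H06Rik*, *Phlda2*, *Gm12633*, *Elavl4* and *Ap1m2*. Where these passed the count filter (*2810454H06Rik* in DP cells and *Ap1m2* in both), edgeR did not place them past the threshold, and *Gm12610* overlaps *Cdkn2b* on the other strand.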

How the data were processed

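The authors filtered reads with fastp 0.13.1, aligned them with HISAT2 2.1.0 and counted fragments per gene with featureCounts 1.6.1, and deposited raw fragment counts for 16 samples (14583336 to 25981683 counts in a DP library and 8514135 to 13530783 in a CD8 library). All else, CPM and TPM included (exonic lengths of the deposited DP table for both cell types), was computed here. The members and lists were chosen with earlier results of these data known. The CD8 columns named Ctrl and Tox4_KO were read as control and cKO under the same numbers.

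Each cell type was fitted on its whole table with edgeR 4.0.16 (R 4.3.3; quasi-likelihood F test, TMM, filterByExpr, Benjamini-Hochberg), calling genes by the cut-offs of the study (adjusted p 0.05, fold change 1.5, mean TPM 1) and members by adjusted p alone. DESeq2 1.42.0, RLE and upper-quartile scaling, a robust prior, a replicate block, no filter or at least 10 counts in every sample, 1 fit of all groups, a pseudocount of 0.1 and leaving out each sample (with edgeR, and with DESeq2 as chosen after seeing the data) were alternatives. Exact permutation tests (2-sided) and plots used scipy 1.17.1 and matplotlib 3.10.9. Genes named are the members, *Tox4*, the genes of each list past the threshold (at most 5) or else the 2 with the smallest p in each cell type, the genes most like a member (5 for *Cdkn1a*, 3 for each other that passed the filter), and genes overlapping or next upstream of a member. Genes past the threshold with DESeq2 alone that are named all fall under this rule. Marker genes are named beside their lists.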

Additional observations from a re-analysis of the deposited data

Results flagged for a closer look

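Each group of 5 CD8 samples was searched for a sample far from the others (a gap to the nearest sample large against the range of the group), for the 7 members, *Tox4*, and the libraries. Of 20 groups 5 held such a sample, where chance marks about 1 in 20, and 3 of the 5 rest on a gene that is at 0 in the other samples of its group. These are *Cdkn2a* in CD8 control replicate 1 (0.870 CPM, 8 fragments), *Cdkn2b* in CD8 control replicate 4 (0.0918 CPM, 1 fragment) and *Cdkn2a* in CD8 cKO replicate 5 (0.115 CPM, 1 fragment). *Cdkn2c* in CD8 cKO replicate 4 was 14.2 CPM, where the next highest sample had 10.04. The number of genes with a count in CD8 control replicate 1 was 17741, where the next highest control had 14194.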

How the results depend on the processing

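The log2 fold change of *Cdkn1a* kept its direction under all 17 alternatives in DP cells (1.11 to 1.75) and all 25 in CD8 cells (1.38 to 1.77), and with DESeq2 without each sample in turn, and what changed was its side of the threshold. It passed 0.05 with DESeq2 (1.42 in DP, 1.56 in CD8 cells) and with DESeq2 with no filter on low counts (1.42 and 1.56, chosen after seeing the data), and with DESeq2 in CD8 cells also without independent filtering (1.56), with the replicate block (1.64), and after leaving out any 1 of the 10 samples (1.39 to 1.77, with 1.67 without control replicate 1 and 1.57 without cKO replicate 4), and in DP cells after leaving out control replicate 2 (1.74) or cKO replicate 2 (1.62), these left-out fits chosen after seeing the data. Under these settings 1 member passed in place of 0. In DP cells it missed the threshold with DESeq2 without independent filtering (adjusted p = 0.0509), with DESeq2 and the block (adjusted p = 0.0681) and without any of the other 4 samples (0.242 to 0.365), and over all fits the adjusted p in DP cells ran from 0.0357 to 0.557. The filter of at least 10 counts in every sample gave no value for *Cdkn1a* in CD8 cells. Genes called in DP cells went from 17 to 160 with DESeq2, 159 without independent filtering, 131 with the replicate block in edgeR, 218 with DESeq2 and the block, 74 with no filter in edgeR, 160 with no filter in DESeq2, 42 in 1 fit of all groups, and 0 (without control replicate 2) to 8 (without control replicate 1) with a sample left out. Those in CD8 cells went from 11 to 53 with DESeq2 with or without independent filtering, 31 with the block, 63 with DESeq2 and the block, 46 with no filter in DESeq2, 77 and 72 with DESeq2 without control replicate 1 or cKO replicate 4, 5 without both samples numbered 1, 20 with the block and without these (chosen after seeing the data), and 4 (without control replicate 3) to 20 (without cKO replicate 4) with a sample left out. The ratio of *Cdkn1a* to *Cdkn2b* in CD8 cells, which rests mostly on the pseudocount, went from 1.18 (exact permutation p = 0.00794) to 1.14 (exact permutation p = 0.0635) with a pseudocount of 0.1. With a sample left out, *Cdkn1c* in DP cells ranged from -0.0903 to 0.35, *Cdkn2d* in DP cells from -0.21 to 0.0417 and *Cdkn2d* in CD8 cells from -0.20 to 0.0669, so these signs turned. A count of 202 alternatives left out the changes of *Cdkn1a*, the ratios, the differences between cell types and the numbers of genes or members past the threshold. It took in the changes of the other tested members. It also took in the mean levels and the order of all members, which have neither a direction nor a threshold. Of these 202, 194 were unchanged. The 8 that turned the sign are those of *Cdkn1c* in DP cells (2) and of *Cdkn2d* in DP (1) and CD8 cells (5). The cause of these changes was not tested. The block takes samples of the same number as pairs. Across genes, deviations from group means correlated between same-numbered samples at 0.68, 0.09 and 0.32 in DP cells and 0.38, 0.32, 0.34, 0.33 and 0.10 in CD8 cells, not every sample correlated best with its own number, and the labels do not say which samples share a litter, so the fits without the block are the ones reported. Of the genes of the 5 lists, the block brought past the threshold in DP cells *Bbc3* (edgeR adjusted p = 0.0339, DESeq2 0.00144), *Btg2* (0.0293 and 0.000751), with edgeR alone *Ccnd2* (0.0181), which DESeq2 passed without it, and with DESeq2 alone *Foxm1* (0.0154) and *Mki67* (0.00190), while *Phlda3* in CD8 cells missed it with DESeq2 (0.144). *Btg2* and *Mki67* were chosen after their values were seen. Calls of marker genes changed too, among them *Ccr7* (edgeR adjusted p = 0.0240), *Bcl2* (0.0192), *Il7r* (0.0166), *Cd8a* (0.0336) and *Zbtb7b* (0.0319) in DP and *Sox13* (0.0211) and *Foxp3* (0.00967) in CD8 cells, which edgeR passed with the block, while DESeq2 no longer passed *Cd74* in DP cells (0.264). Depth limits *Cdkn2a* and *Cdkn2b* to statements about detection, and *Cdkn1c* in CD8 cells was under the count filter of that fit.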
